A study of Mus musculus with 20 samples.

Results

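The transcription factors Bcl6, Blimp-1 (encoded by Prdm1) and Bach2 were followed here through sorted CD4 T cells of mouse lymph nodes and Peyer's patches. The members were the probes whose gene name on the array was Bcl6, Prdm1 or Bach2, which gave 4 of 39429 probes, for 3 of 24325 genes. Bcl6 and Prdm1 had 1 probe each and Bach2 had 2.

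The study compared follicular helper (TFH) with follicular regulatory (TFR) T cells, both in peripheral lymph nodes (pLN) and in Peyer's patches (PP). RNA of sorted cells was hybridised to 20 Agilent arrays in 1 colour, each sample on its own array. All mice were B6.Cg-Foxp3<tm1Mal> animals, a reporter strain in which cells that express Foxp3 are green through EGFP, aged 8 to 14 weeks, and each sample was a mixed-sex pool of 8 to 15 mice. The 12 groups were naive T, TFH, Treg and TFR cells of pLN on day 12 (d12, 2 arrays per group) and day 25 (d25, 1 array per group) after subcutaneous immunisation with keyhole limpet hemocyanin in Alum, and, from PP, Treg and TFR cells and TFH cells with and without the epitope GL7 (GL7+ and GL7-, 2 arrays per group), for which the labels state no immunisation. Naive cells were sorted as GFP-negative, low for PD1 and GL7-negative. TFH cells were GFP-negative and PD1-high, Treg cells GFP-positive and PD1-low, and TFR cells GFP-positive and PD1-high. TFH cells of pLN were GL7+, Treg cells were GL7-negative and TFR cells were taken with or without GL7, a carbohydrate epitope of germinal centre cells. No naive group of PP and no resting pLN were analysed here. Because RNA was taken from sorted pools, fewer cells that express a gene and less RNA per cell cannot be told apart.

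Bcl6 is a BTB zinc finger repressor and the lineage factor of TFH and germinal centre B cells. Blimp-1 is a repressor with a PR domain that drives plasma cells and effector T cells, and it and Bcl6 are known to repress each other's genes. Bach2 is a basic leucine zipper repressor that pairs with small Maf proteins, is known to hold T cells in a naive or resting state and represses Prdm1 in B cells. In Treg cells, Bach2 is known to limit effector differentiation, while Blimp-1 marks effector Treg cells.

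The probes are shown first because each result below rests on what these stretches hybridise to. The positions are those of the array annotation, in assembly mm9, and the first 30 of 60 bases are given from 5′ to 3′. Capitals in the Prdm1 probe mark a stretch of repeated T and G that fills its first 27 bases. A run of 20 bases of the Prdm1 probe also occurs in 1 probe of another gene, and none of the other member probes shares such a run. Exon or intron annotation in mm9 was not used here.
Bcl6, A_52_P161495, chr16:23965160-23965219, minus strand: cagggtttggctgtgtctaaactgcattag
Prdm1, A_55_P2027022, chr10:44157089-44157148, minus strand: GTTGGTTGGTTTGTTTGTTTGTTTTTTcct
Bach2, A_66_P114768, chr4:32673009-32673068, plus strand: tgaattgctagtgtttactgaattttgtct
Bach2, A_55_P1956370, chr4:32588782-32588841, plus strand: cttctggcaagcactggttggacagacgaa

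The promoters are shown because the 3 factors are known to act on each other's genes. RefSeq start sites in GRCm38.p6 gave 1 window each for Bach2 and Prdm1 and 2 for Bcl6, each with 250 bases before the start and 50 after it. Both strands were searched for 3 patterns, where N is any base. TTCNNNGAA is the core bound by Bcl6 and equally the letters of a STAT element. TGANTCA is a loose form of the core shared by Bach2 and AP-1, which has G or C at N. AGNGAAAG is a loose form of the Blimp-1 core, which has T or C at N and overlaps interferon regulatory factor elements. Of 32851 windows of this length, 8.298% held TTCNNNGAA, 7.808% held TGANTCA and 8.633% held AGNGAAAG. The Bach2 window held TTCNNNGAA at position -140 and AGNGAAAG at -18, counted from the start. The match at -18 lies on the other strand and has G at N, so it meets the loose form alone. The Prdm1 window held TGANTCA at -48, with A at N, so it too meets the loose form alone. A Bcl6 window held TTCNNNGAA at -118 and the other window held it at -168, -122 and -88. The 250 bases before the start are printed from 5′ to 3′ for Bach2, Prdm1 and the Bcl6 window with 3 matches, with the matches in capitals.
Bach2, chr4:32417185-32417434, plus strand: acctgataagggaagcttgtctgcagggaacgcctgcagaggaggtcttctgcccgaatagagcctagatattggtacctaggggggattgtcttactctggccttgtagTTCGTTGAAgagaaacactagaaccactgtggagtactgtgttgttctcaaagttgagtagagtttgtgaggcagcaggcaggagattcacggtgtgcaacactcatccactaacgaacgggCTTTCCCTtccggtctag
Prdm1, chr10:44458749-44458998, minus strand: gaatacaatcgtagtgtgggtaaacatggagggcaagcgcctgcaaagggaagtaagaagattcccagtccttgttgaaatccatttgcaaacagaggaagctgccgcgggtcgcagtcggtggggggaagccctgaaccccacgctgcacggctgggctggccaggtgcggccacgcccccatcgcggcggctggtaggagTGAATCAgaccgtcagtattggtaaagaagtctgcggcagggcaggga
Bcl6, chr16:23981284-23981533, minus strand: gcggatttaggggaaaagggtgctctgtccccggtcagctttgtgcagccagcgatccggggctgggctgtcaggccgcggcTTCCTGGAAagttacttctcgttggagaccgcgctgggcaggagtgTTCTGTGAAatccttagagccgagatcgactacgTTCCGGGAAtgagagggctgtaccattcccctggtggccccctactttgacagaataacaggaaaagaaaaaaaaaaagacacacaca

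Levels are given as normalised intensity, the quantile-normalised brightness of a probe scaled so that the 75th percentile of an array is 1500 and no value is under 20, and levels of different probes are not compared. Between 43.0% and 58.0% of probes were above background per array and none was saturated. Slides held the 4 groups of 1 tissue and day: slides 1 and 2 held replicates 1 and 2 of pLN d12, slide 3 pLN d25, and slides 4 and 5 replicates 1 and 2 of PP. The median local background was 268 on pLN d12 TFR replicate 2 and 24 to 78 elsewhere. The sorts carried their markers: Cd4, Cd3e and Cd3g were above background on all 20 arrays, and the sum over Foxp3, Ikzf2, Lrrc32 and Il2ra was 41719 to 95664 in Treg and TFR cells against 422 to 9015 in the other groups.

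B-cell markers stood out on slide 4 and bear on every PP value, since B-lineage cells are known to express Bcl6, Bach2 and Prdm1. The summed intensity of 13 B-cell markers on slide 4 was 141170 in Treg cells, 237588 in TFR cells, 106724 in GL7+ TFH cells and 69367 in GL7- TFH cells, with all 13 above background. On slide 5 the same 4 groups gave 16849, 31702, 53889 and 34470, with 11 to 13 above background. In PP TFR cells, Ms4a1 was 28140 on slide 4 and 188 on slide 5. In pLN the sum lay between 8237 and 83488, highest in TFH cells. Markers of germinal centre B cells, plasma cells and epithelium were also higher on slide 4 than on slide 5 in each of the 4 groups: sums over 5 germinal centre markers were 967 to 7304 against 165 to 999, over 4 plasma cell markers 21204 to 70617 against 13222 to 22019, and over 7 epithelial markers 3207 to 8085 against 829 to 2370. The sum over 6 myeloid markers was 24138 to 60128 on all arrays. In pLN, replicate 1 of d12 TFH cells had the highest plasma cell sum, 69481 against 20915 in replicate 2. Its germinal centre sum was 786 against 141 and its Prdm1 820 against 450. Prdm1 was also higher in replicate 1 of naive (703 against 451) and Treg cells (1651 against 823), and alike in TFR cells (2242 against 2223). Their plasma cell sums were 25611 against 28326, 24849 against 28246 and 19428 against 16531. The part of these cells in the member values was not tested. Values on slide 5 are given beside the member differences from PP Treg cells, those without slide 4 for Bcl6 and Prdm1 beside their differences between tissues, and the list genes named further on are given over both PP slides.

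**Figure D1:**
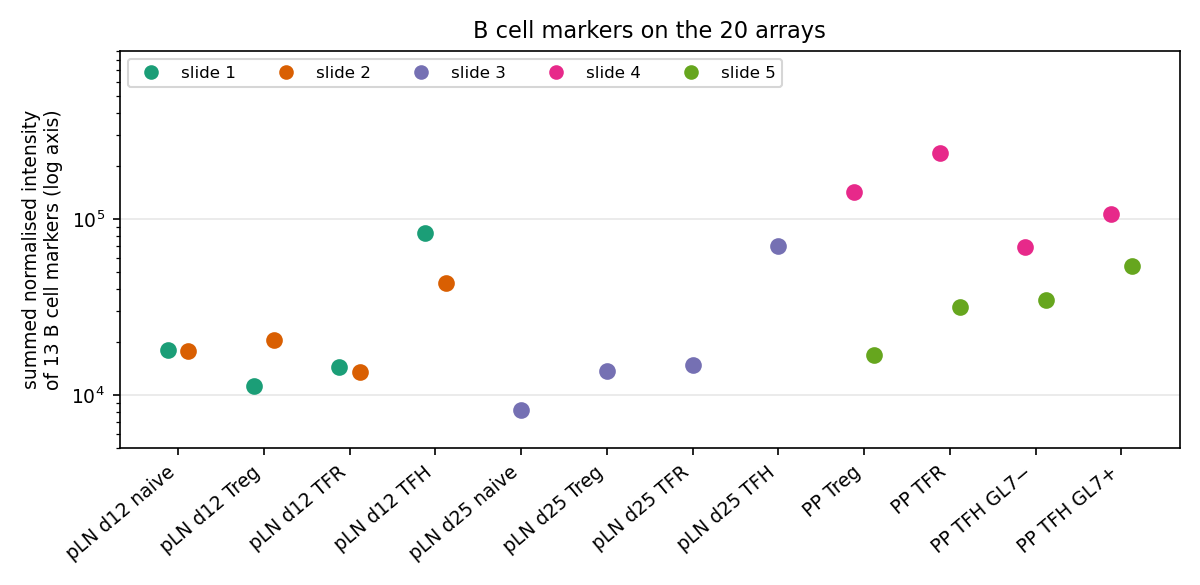
Summed normalised intensity of 13 B-cell markers (log axis) on each of the 20 arrays by group, coloured by slide. All 4 groups of slide 4 lie above their partners of slide 5, most in PP Treg cells (141170 against 16849) and PP TFR cells (237588 against 31702).

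Bcl6 was high in every TFH group and in PP TFR cells, intermediate in pLN TFR cells and low in naive and Treg cells. In pLN on d12 its normalised intensity was 70322 and 42692 in TFH cells, 8794 and 10254 in TFR cells, 5293 and 5592 in naive cells and 3431 and 4429 in Treg cells. On d25 it was 54741 in TFH, 16807 in TFR, 4689 in naive and 3964 in Treg cells. In PP it was 72183 and 51429 in GL7+ TFH, 57076 and 41179 in GL7- TFH, 53774 and 46063 in TFR and 7034 and 4213 in Treg cells. The arrays of the 5 highest groups, TFH cells of either tissue and PP TFR cells, were interleaved between 41179 and 72183. A gap separated them from pLN TFR cells, whose d25 array lay above both d12 arrays. The naive and Treg arrays were lowest, between 3431 and 7034, and the PP Treg arrays lay on both sides of the naive arrays.

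Prdm1 had another order, with pLN TFR cells at the top and PP TFH cells far below all others. On d12 its intensity was 2242 and 2223 in pLN TFR cells, 1651 and 823 in Treg cells, 820 and 450 in TFH cells and 703 and 451 in naive cells. On d25 it was 3056 in TFR, 781 in Treg, 522 in naive and 407 in TFH cells. In PP it was 1629 and 1293 in Treg, 640 and 1065 in TFR, 133 and 181 in GL7- TFH and 125 and 145 in GL7+ TFH cells. No array outside PP TFH cells was under 407, and no PP TFH array was over 181. The GL7 fractions overlapped, as did pLN TFH with naive cells and pLN Treg with PP TFR cells, while both PP Treg arrays lay above both PP TFR arrays.

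Bach2 fell into a high set of naive and Treg cells and a low set of follicular cells. By its brighter probe, A_66_P114768, the intensity on d12 was 6253 and 5584 in naive, 4458 and 4068 in Treg, 1026 and 1325 in TFR and 464 and 599 in TFH cells. On d25 it was 6027 in naive, 4550 in Treg, 1899 in TFR and 643 in TFH cells. In PP it was 5398 and 5561 in Treg, 2136 and 877 in TFR, 885 and 563 in GL7+ TFH and 641 and 625 in GL7- TFH cells. No Treg or naive array was under 4068 and no follicular array was over 2136. The PP TFR arrays stood farthest apart, and the higher was the one on slide 4 with the highest B-cell marker sum.

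The other Bach2 probe, A_55_P1956370, was dim. It was above background on 6 of 20 arrays, namely replicate 1 of pLN d12 naive (134), Treg (104) and TFR cells (51.5), both PP Treg arrays (88.3 and 61) and PP TFR replicate 1 (49.9). On all 7 TFH arrays of pLN and PP it was between 20 and 23.1 and not above background. Naive over TFH cells of pLN d12 gave 2.92-fold by this probe, counting the TFH arrays at their lowest detected intensity. Of the 2 naive arrays 1 was above background, and the other was counted as measured (86.1), so this is no strict bound. PP Treg over GL7+ TFH cells gave at least 2.53-fold. The limma tests used the floored values, with log2 differences of -2.42 for TFH minus naive (adjusted p = 0.00479) and -1.83 for GL7+ TFH minus Treg cells (adjusted p = 0.0302). Both differences lie in the direction of the brighter probe, by which all further Bach2 values are given.

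**Figure D2:**
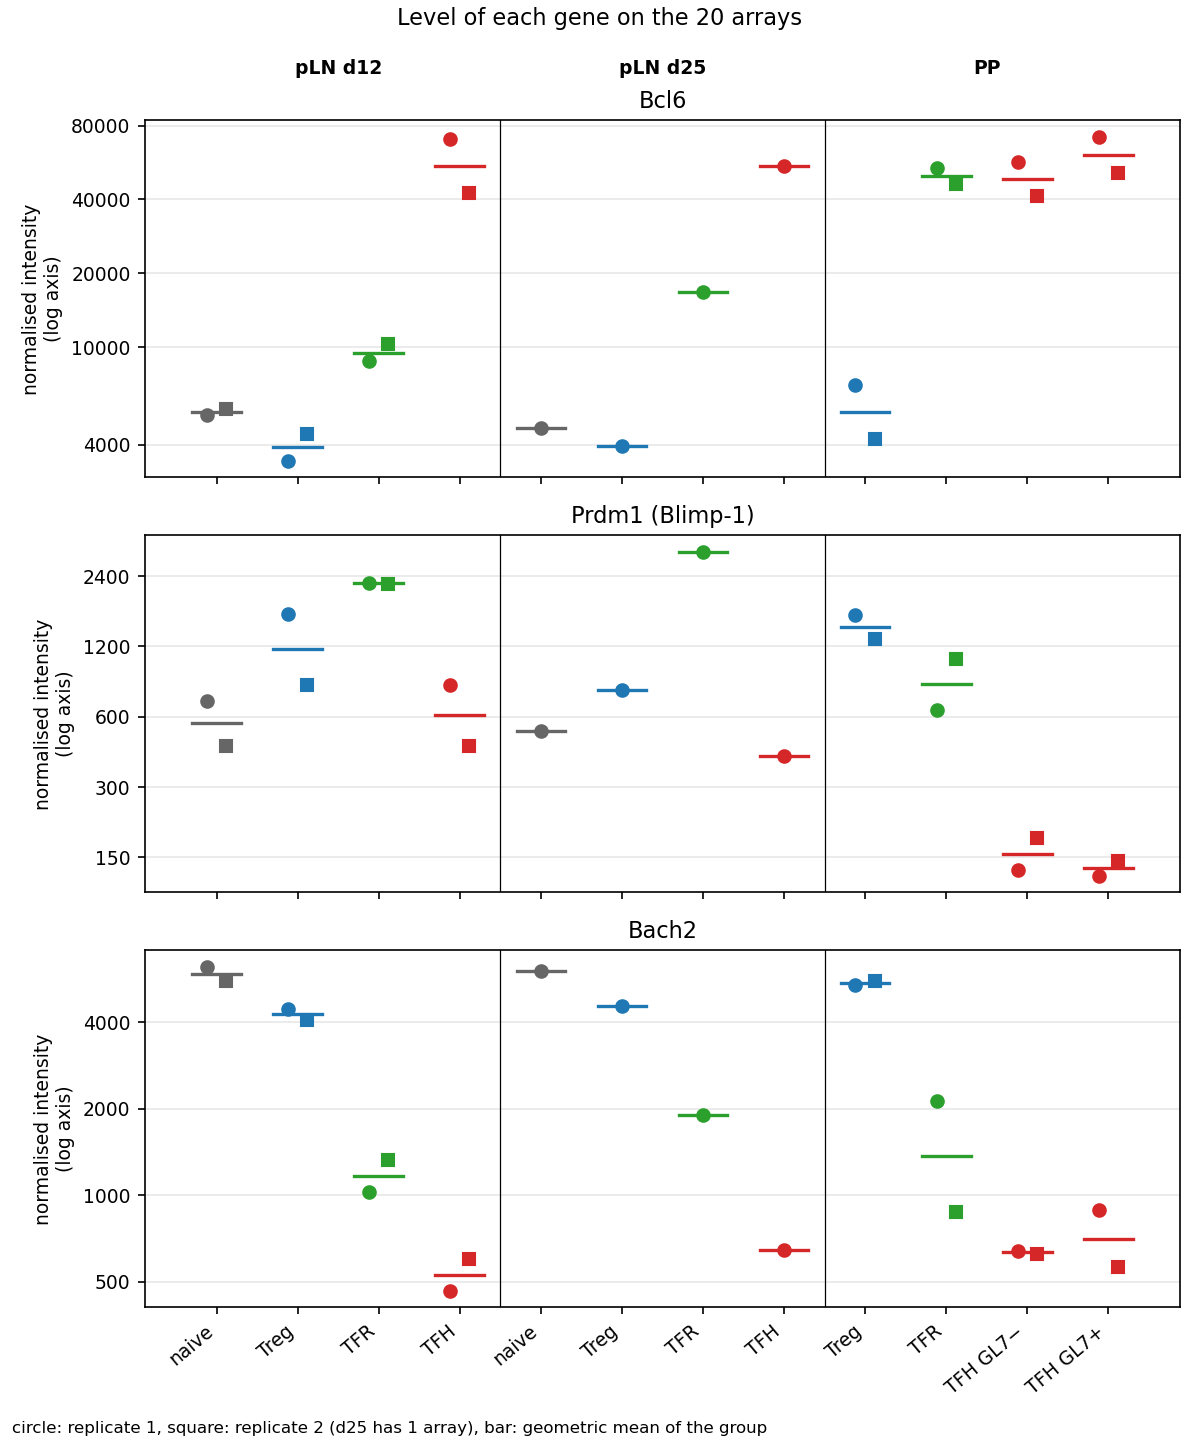
Normalised intensity (log axis) of Bcl6, Prdm1 and Bach2 (probe A_66_P114768) in the 12 groups, with each array as a point and the geometric mean as a bar. Bcl6 in PP TFR cells (53774 and 46063) lies with TFH cells, Prdm1 in PP TFH cells (125 to 181) lies below every other group, and Bach2 is high in naive and Treg cells alone (4068 to 6253).

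Comparisons were made with limma in 1 linear model over the 12 group means. A call needed a log2 difference of at least 1 in size and a p below 0.05 after adjustment over the 22264 tested probes. All 3 genes differed among the 12 groups by limma's F test, with adjusted p = 1.99e-05 for Bcl6, 0.000382 for Prdm1 and 0.000157 for Bach2, where 33.6% of tested probes passed. Each array held cells sorted from pooled organs, and the replicates of a group lay on different slides. The p-values thus measure the spread between pools and slides together, not between mice. The fit had no term for slide, and arrays of a slide correlated at 0.742 when slide was a random block.

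The step from naive to TFH cells in pLN d12 came with higher Bcl6 and lower Bach2, and Prdm1 was not called. Bcl6 was 10.1-fold higher in TFH cells (log2 difference 3.33 ± 0.32 SE, adjusted p = 5.6e-05). Bach2 was 11.2-fold lower (log2 difference -3.49 ± 0.37 SE, adjusted p = 9.43e-05). Both calls held in 13 of 13 alternatives, against a background of 14.7% of probes called in this comparison. Prdm1 differed by 0.11 ± 0.41 on the log2 scale, with a 95% interval from -0.80 to 1.02 (adjusted p = 0.915). On d25, with 1 array a group, the TFH array differed from the naive array by log2 3.55 for Bcl6, -3.23 for Bach2 and -0.36 for Prdm1.

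Between Treg and naive cells of pLN d12 none of the 3 genes was called, where 3.76% of probes were. Bcl6 differed by log2 -0.48 ± 0.32 SE and Bach2 by -0.47 ± 0.37 SE. Prdm1 was higher in Treg cells within each of slides 1, 2 and 3 (log2 1.23, 0.87 and 0.58), and 1.05 ± 0.41 SE in the fit (adjusted p = 0.308). With slide as a random or a fixed block the same Prdm1 difference passed (adjusted p = 0.0225 and 0.0407, in a range of 0.0225 to 1 over 13 alternatives).

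From Treg to TFR cells in pLN d12, Bcl6 rose and Bach2 fell. Bcl6 was 2.44-fold higher in TFR cells (log2 1.28 ± 0.32 SE, adjusted p = 0.0277) and Bach2 3.65-fold lower (log2 -1.87 ± 0.37 SE, adjusted p = 0.00859), where 8.35% of probes were called. The Bcl6 call was lost in 6 of 13 alternatives and the Bach2 call in 4 of 13, with adjusted p up to 0.17 and 0.0752. Leaving out any 1 of the 4 arrays of these groups ended the Bcl6 call. For Bach2, 3 of the 4 omissions did so, among them that of either Treg array. Prdm1 was 1.91-fold higher without passing (log2 0.94 ± 0.41 SE, adjusted p = 0.201). The Treg to TFR difference of Prdm1 was log2 0.44, 1.43 and 1.97 on slides 1, 2 and 3.

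TFR cells of pLN d12 differed from TFH cells by lower Bcl6 and higher Prdm1. Bcl6 was 5.77-fold lower in TFR cells (log2 -2.53 ± 0.32 SE, adjusted p = 0.00112) and Prdm1 3.67-fold higher (log2 1.88 ± 0.41 SE, adjusted p = 0.0225), where 5.01% of probes were called. The Prdm1 call was lost in 5 of 13 alternatives (adjusted p up to 0.173), and the Bcl6 call in the fit of these groups alone (adjusted p = 0.106, in a range of 2.5e-05 to 0.106). Bach2 was 2.21-fold higher in TFR cells, by log2 1.14 and 1.15 on slides 1 and 2, and did not pass (log2 1.15 ± 0.37 SE, adjusted p = 0.116). It passed with slide as a random or a fixed block (adjusted p = 0.0134 and 0.0289, in a range of 0.0134 to 0.508).

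In PP, GL7+ TFH cells had higher Bcl6, lower Prdm1 and lower Bach2 than Treg cells, and all 3 passed. Bcl6 was 11.2-fold higher (log2 3.48 ± 0.32 SE, adjusted p = 6.65e-05), Prdm1 10.8-fold lower (log2 -3.43 ± 0.41 SE, adjusted p = 0.000356) and Bach2 7.76-fold lower (log2 -2.96 ± 0.37 SE, adjusted p = 0.000446), where 9.87% of probes were called. On slide 5 alone, where B-cell markers were lower, the differences were log2 3.61, -3.16 and -3.30. Prdm1 lost its call without slide 4, at adjusted p = 0.0553 (range 4.35e-06 to 0.0553 over 14 alternatives).

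TFR cells of PP had higher Bcl6 and lower Bach2 than PP Treg cells. Against PP Treg cells, Bcl6 was 9.14-fold higher (log2 3.19 ± 0.32 SE, adjusted p = 0.000178) and Bach2 4.0-fold lower (log2 -2.001 ± 0.37 SE, adjusted p = 0.00543), where 9.25% of probes were called. On slide 5 alone these were log2 3.45 and -2.66. Prdm1 in TFR cells was 1.76-fold lower than in Treg cells, without passing (log2 -0.81 ± 0.41 SE, adjusted p = 0.281), by -1.35 on slide 4 and -0.28 on slide 5.

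Against GL7+ TFH cells of PP, the TFR cells had 6.14-fold higher Prdm1 (log2 2.62 ± 0.41 SE, adjusted p = 0.00481), where 3.44% of probes were called, and 0.88% of probes had a larger difference. The difference was log2 2.36 on slide 4 and 2.87 on slide 5. The call was lost in 3 of 14 alternatives, one of them the fit without slide 4 (adjusted p up to 0.146). Bcl6 differed by log2 -0.29 ± 0.32 SE, with an interval from -1.004 to 0.42. Bach2 was 1.94-fold higher without passing (log2 0.96 ± 0.37 SE, adjusted p = 0.289), by 1.27 on slide 4 and 0.64 on slide 5, and it passed without PP TFR replicate 2, the array on slide 5 (adjusted p = 0.0256, range 0.0256 to 0.9).

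No member was called between the GL7 fractions of PP TFH cells. GL7+ and GL7- cells differed by log2 0.33 for Bcl6 (interval -0.38 to 1.04), -0.20 for Prdm1 (-1.11 to 0.70) and 0.16 for Bach2 (-0.66 to 0.97), and 0.00898% of probes were called. A 2-fold higher Bcl6 or a 2-fold lower Prdm1 in GL7+ cells lies within these intervals.

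**Figure D3:**
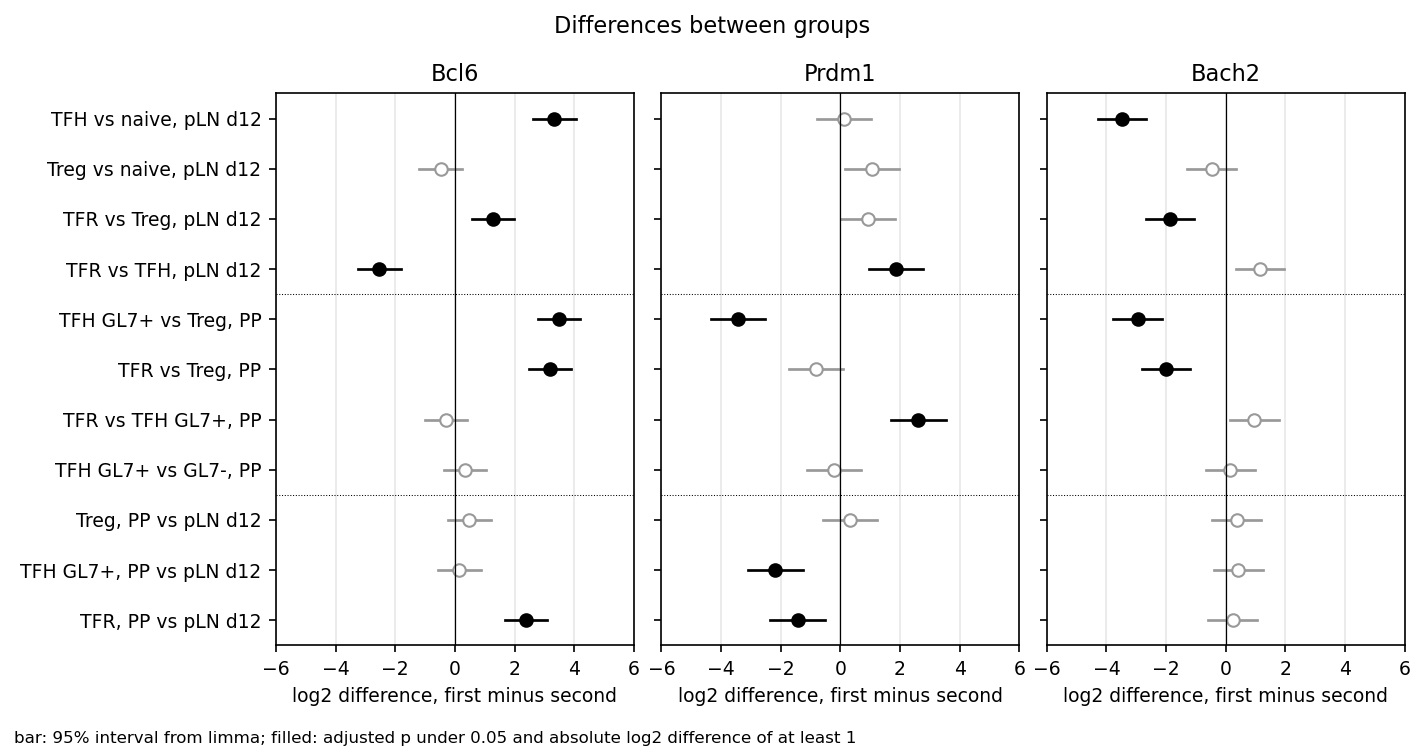
Log2 difference of Bcl6, Prdm1 and Bach2 in 11 comparisons, first-named minus second-named group, with its 95% interval from limma, filled where the call passed. Bcl6 passes in TFR cells between tissues (2.39) but not in TFH cells (0.15), and Prdm1 passes in TFH cells (-2.17) and TFR cells (-1.44).

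Between tissues, Bcl6 and Prdm1 were called in TFR cells and Prdm1 in TFH cells. Bcl6 was 5.24-fold higher in PP than in pLN d12 TFR cells (log2 2.39 ± 0.32 SE, adjusted p = 0.00128), a call that held in 13 of 13 alternatives, where 11.1% of probes were called. Prdm1 was 2.70-fold lower in PP TFR cells (log2 -1.44 ± 0.41 SE, adjusted p = 0.0387), a call lost in 7 of 13 alternatives (adjusted p up to 0.286), among them the fit without slide 4. In TFH cells, Prdm1 was 4.52-fold lower in PP (log2 -2.17 ± 0.41 SE, adjusted p = 0.0151), where 4.54% of probes were called, and this call was lost in 6 of 13 alternatives (adjusted p up to 0.172), again among them the fit without slide 4. The values without slide 4 were log2 -1.07 for TFR cells and -2.07 for TFH cells, and that for Bcl6 in TFR cells was 2.28 (adjusted p = 0.0209). Without replicate 1 of pLN d12 TFH cells, the array with the high plasma cell markers, Prdm1 differed by log2 -1.74 in TFH cells (adjusted p = 0.0929). Both Prdm1 calls between tissues were also lost with slide as a random block. Each tissue and day lay on slides of its own, so slide and tissue cannot be told apart. The pLN cells came from immunised mice on d12, and the PP labels state no immunisation or day. These too cannot be told apart from tissue.

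Bach2 and the Treg cells showed no called difference between tissues. Bach2 differed between PP and pLN d12 by log2 0.36 in Treg cells, 0.42 in GL7+ TFH cells and 0.23 in TFR cells, each ± 0.37 SE. In Treg cells, where 2.24% of probes were called, Bcl6 differed by log2 0.48 ± 0.32 SE and Prdm1 by 0.32 ± 0.41 SE. Without slide 4 the Treg values were log2 0.11 for Bcl6 and 0.15 for Prdm1. In TFH cells Bcl6 differed by log2 0.15 ± 0.32 SE, and by -0.0914 without slide 4.

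The size of the Treg to TFR step was compared between tissues directly. The Bcl6 step was larger in PP by log2 1.91 ± 0.45 SE (adjusted p = 0.127) and the Prdm1 step lower by log2 -1.75 ± 0.58 SE (adjusted p = 0.332), where 0.548% of probes were called, and neither passed. With slide as a random or a fixed block both passed (Bcl6 adjusted p = 0.00568 and 0.0167, Prdm1 0.0171 and 0.0343), and Bcl6 also with RNA input as a covariate (0.0354). The adjusted p ranged from 0.00568 to 0.433 for Bcl6 and from 0.0171 to 0.98 for Prdm1 over 18 alternatives. Without slide 4 the steps differed by log2 2.17 for Bcl6 (adjusted p = 0.339) and -1.22 for Prdm1 (adjusted p = 0.98). The Bach2 step differed by log2 -0.13 ± 0.52 SE.

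Within pLN d12, the follicular step of the TFH lineage (TFH minus naive) was set against that of the TFR lineage (TFR minus Treg). For Bcl6 the TFH step was larger by log2 2.05 ± 0.45 SE (adjusted p = 0.0494), where 2.18% of probes were called. This call was lost in 11 of 17 alternatives, with adjusted p between 0.00204 and 0.191. For Bach2 the steps differed by log2 -1.62 ± 0.52 SE (adjusted p = 0.219) and for Prdm1 by -0.83 ± 0.58 SE (adjusted p = 0.957).

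Between d25 and d12 no member passed in any of the 4 cell types, with 1 array per group on d25. Of the 12 differences, the largest was Bcl6 in TFR cells (log2 0.82 ± 0.39 SE, interval -0.05 to 1.70, adjusted p = 1 in limma), followed by Bach2 in TFR cells (0.70 ± 0.45 SE). The dim Bach2 probe, not above background in d25 TFR cells, went the other way (-0.79 ± 0.58 SE). At most 0.0314% of probes were called in these comparisons, the share for TFH cells, and 0% in Treg cells, where 780 probes had an unadjusted p under 0.05. The day and slide 3 cannot be told apart.

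Set side by side on each array, high Bcl6 and high Bach2 did not occur together. The arrays with Bcl6 of at least 41179 had Bach2 of at most 2136, and those with Bach2 of at least 4068 had Bcl6 of at most 7034. The pLN TFR arrays stood apart from both sets, with Bcl6 from 8794 to 16807 and Bach2 from 1026 to 1899. With Bcl6 in the high set, Prdm1 was 125 to 181 in PP TFH cells, 407 to 820 in pLN TFH cells and 640 to 1065 in PP TFR cells, and with low Bcl6 it was 451 to 703 in naive cells and 781 to 1651 in Treg cells. Its highest levels, 2223 to 3056, were those of pLN TFR cells.

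**Figure D4:**
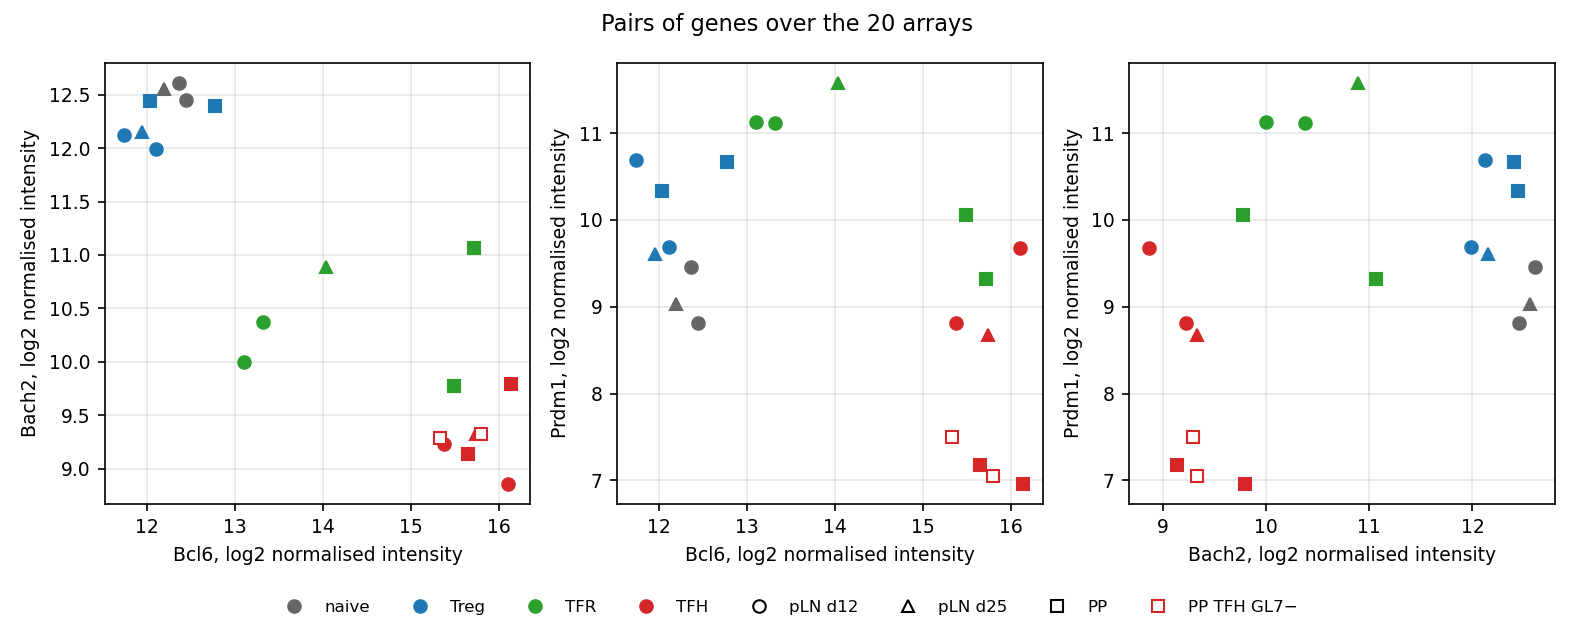
Log2 normalised intensity of each pair of genes on the 20 arrays, coloured by cell type, with the marker shape for tissue and day. TFH cells and PP TFR cells lie at high Bcl6 and low Bach2, naive and Treg cells at the opposite corner, and Prdm1 is lowest in PP TFH cells (125 to 181), with pLN TFH and PP TFR cells overlapping.

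The surroundings of Bcl6 were read from lists of other genes, 1 probe per gene, without the members. The lists are to be read against the shares of all 14545 tested genes called higher and lower, which were 10.2% and 5.84% in TFH against naive, 3.46% and 0.997% in Treg against naive, 6.79% and 2.73% in TFR against Treg and 3.27% and 2.43% in TFR against TFH cells of pLN d12. In PP they were 6.13% and 5.11% in GL7+ TFH against Treg, 7.16% and 3.25% in TFR against Treg and 2.83% and 1.2% in TFR against GL7+ TFH cells. Between PP and pLN d12 they were 2.59% and 2.52% in TFH and 6.32% and 5.75% in TFR cells, and 0.426% and 0.227% in the tissue difference of the Treg to TFR step. Of 17 signals and factors known to raise Bcl6, 7 were called higher and 1 lower in pLN d12 TFH against naive cells, with a median log2 difference of 0.44 against -0.08 over all genes. Ascl2, a basic helix-loop-helix factor that starts the TFH programme, was at least 521-fold higher, being not well above background in naive cells. Maf, an inducer of IL-21, rose by log2 5.54 ± 0.40 SE and Tox2, an HMG-box factor, by 3.71 ± 0.40 SE, while Lef1, a partner of TCF-1, fell by 2.59. Ascl2, like Bcl6, was higher in PP than in pLN d12 TFR cells, by log2 3.61 ± 0.47 SE (adjusted p = 0.00111 in limma). Maf was higher there by 1.76, a call lost in 6 of 13 alternatives, and Stat4 by 1.83. In that comparison 5 of the 17 genes were called higher and 1, Il6ra, lower (log2 -1.32).

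Of 14 genes known to be repressed by Bcl6 in T cells, 13 were tested. In pLN d12 TFH against naive cells, 6 were called lower, led by Il7r (log2 -4.35), Ccr7 (-3.70) and S1pr1 (-3.62), which encode the IL-7 receptor and a pair of receptors for trafficking, and 2 higher, Tbx21 (2.69) and Rora (2.43). In TFR against Treg cells of pLN d12, 2 were called lower, S1pr1 (log2 -1.96) and Ccr7 (-1.63, a call lost in 5 of 13 alternatives). In PP 7 were called lower, led by Klf2 (-4.08), S1pr1 (-3.45) and Ccr7 (-3.38), with none of the list higher in either tissue. Their median log2 difference was -0.56 in pLN d12 and -1.91 in PP, against -0.07 and -0.02 over all tested genes. The difference of these steps between tissues had a median of -1.35 over the list against 0.06, and 0 of 13 members were called in it. In pLN d12, 4 members were called higher in TFR than in TFH cells, led by Klf2 (1.88), Ccr7 (1.68) and Selplg (1.54). This Klf2 call was lost in 5 of 13 alternatives.

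The IL-2 receptor, STAT5 and Klf2 are known to raise Prdm1. In TFH against naive cells of pLN d12, where Prdm1 was not called, Il2rb (log2 3.03) and Il2ra (2.33) were called higher and Klf2 (-3.38) lower. Il2ra, the high-affinity receptor chain, was higher in Treg than naive cells of pLN d12 by log2 7.31 ± 0.52 SE and in TFR than TFH cells by 4.40 ± 0.52 SE. In PP it was lower in GL7+ TFH than Treg cells by log2 -7.51 ± 0.52 SE and lower in PP than pLN d12 TFH cells by -3.17 ± 0.52 SE (adjusted p = 0.0086). Klf2, a factor of quiescence, was also lower in PP TFH cells (log2 -1.94 ± 0.44 SE, adjusted p = 0.0319), a call lost in 7 of 13 alternatives. TFR cells showed the same pair lower in PP, with Il2ra at log2 -3.01 and Klf2 at -2.67. Of the 8 genes of this list, 2 were thus called lower in each tissue comparison of follicular cells and 1 higher in TFR cells, Il2rg (1.00, a call lost in 6 of 13 alternatives). From Treg to TFR cells, 0 of 8 were called in pLN d12 and 2 were called lower in PP, Il2ra (log2 -2.96) and Klf2 (-4.08).

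The genes known to be repressed by Blimp-1 numbered 7, among them the chemokine receptor gene Cxcr5 and Tcf7. In TFR against TFH cells of pLN d12, 3 were called lower and 1 higher, Myc (1.82). The lower ones were Il2 (log2 -3.61, a call lost in 6 of 13 alternatives), Cxcr5 (-2.86) and Tcf7 (-1.55). In PP TFR against GL7+ TFH cells, Il2 (-3.64) and Tcf7 (-1.29) were called lower, calls lost in 7 and 4 of 14 alternatives. In TFH against naive cells, where Prdm1 was not called, Cxcr5 (6.39) and Il2 (3.13) were called higher and Myc (-1.92) lower. From Treg to TFR cells, Cxcr5 was called higher in pLN d12 (1.80) and PP (2.77). Myc was called lower in PP (-1.65), and Prdm1 was called in neither tissue. Between PP and pLN d12 TFR cells, 3 were called higher in PP, Ciita (4.34, a call lost in 6 of 13 alternatives), Cxcr5 (2.63) and Tcf7 (1.36). Ciita, the activator of MHC class II genes, is expressed by B cells, and B-cell markers were higher on slide 4 in this group. In TFH cells, 1 of 7 was called higher in PP, Tcf7 (1.10), the gene of TCF-1, a call lost in 6 of 13 alternatives.

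Of 12 effector Treg genes that go with Blimp-1, 10 were called higher in Treg than naive cells of pLN d12, led by Klrg1 (at least 37.2-fold), Gzmb (at least 90.2-fold) and Il1rl1 (at least 46.3-fold), each not well above background in naive cells. In TFH against naive cells, 8 of 12 were called higher without a called difference in Prdm1, led by Tigit (log2 6.95), Lag3 (5.05) and Il10 (at least 14.4-fold). In TFR against TFH cells, 6 of 12 were called higher in each tissue, led by Klrg1 (log2 6.87 in pLN d12 and 6.26 in PP), Itgae (5.43 and 5.28) and Il1rl1 (4.77 and 5.86). Klrg1 in pLN TFH and Il1rl1 in PP GL7+ TFH cells were above background on 1 of 2 arrays. Between PP and pLN d12 TFH cells, 3 were called lower in PP, Il10 (at least 30.7-fold), Il1rl1 (log2 -2.15) and Gzmb (-1.58). The calls of Il1rl1 and Gzmb were lost in 9 and 8 of 13 alternatives, with Il1rl1 at log2 -0.86 in one of them. Between PP and pLN d12 TFR cells, 1 was called higher in PP, Lag3 (log2 2.47), and 2 lower, Gzmb (-3.28) and Havcr2 (-3.46, above background on 1 of 2 PP arrays).

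Of 11 genes known to be repressed by Bach2 in T cells, 10 were tested. In TFH against naive cells of pLN d12, 7 were called higher and 0 lower, led by Il4 (log2 7.06), Ifng (at least 29.1-fold) and Nfil3 (3.91), with a median of 2.505 against -0.08. In Treg against naive cells, 7 were called higher too, with a median of 2.30, while Bach2 differed by log2 -0.47. From Treg to TFR cells of pLN d12, 4 were called higher, led by Ifng (3.42), Il4 (2.46, a call lost in 6 of 13 alternatives) and Nfil3 (1.75). In PP 3 were called higher and 1 lower, with Il4 at 4.70, Nfil3 at 1.79, Il13 at least 4.66-fold higher and Gzmb at -3.26. The lists are not independent: this one shares Gzmb, Klrg1, Il1rl1 and Irf4 with the effector Treg list and Gata3 with the Bcl6-repressed list, and Batf, Icos, Irf4, Klf2 and Tcf7 also stand in more than 1 list.

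Partners of Bach2 moved in both directions. Of 12 small Maf, Bach1, NF-E2 and AP-1 genes, 3 were called higher and 3 lower in TFH against naive cells, and again 3 and 3 in TFR against Treg cells of pLN d12. Mafg, a small Maf partner, was higher by log2 3.05 and 1.01 and Batf, an AP-1 factor that competes for the same sites, by 1.83 and 1.47. The Mafg call in TFR against Treg cells was lost in 5 of 13 alternatives. Nfe2, not well above background in naive and Treg cells, was at least 3.94-fold and at least 2.73-fold higher. Bach1, the closest relative of Bach2, was lower by log2 -1.06 and -1.40, Jun by -2.51 and -1.80 and Nfe2l2, the gene of NRF2, by -1.05 and -1.002.

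Of 21 corepressors and chromatin partners of Bcl6 and Blimp-1, 1 was called in TFH against naive cells, Bcorl1 (log2 -1.57), and 0 in the other 16 comparisons. The Bcorl1 call was lost in 5 of 13 alternatives. Among 11 tested BTB zinc finger relatives of Bcl6, Zbtb32, a repressor induced by activation, was at least 30.2-fold higher in TFH than naive cells of pLN d12 and was lower in PP than pLN d12 TFR cells by log2 -5.25 ± 0.59 SE (adjusted p = 0.000571). It was also lower in PP TFH cells, by at least 59.6-fold. Among 8 PRDM relatives of Blimp-1, Prdm10 was higher in PP than pLN d12 TFR cells by log2 2.51 ± 0.50 SE, and was above background on 1 of 2 pLN arrays.

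**Figure D5:**
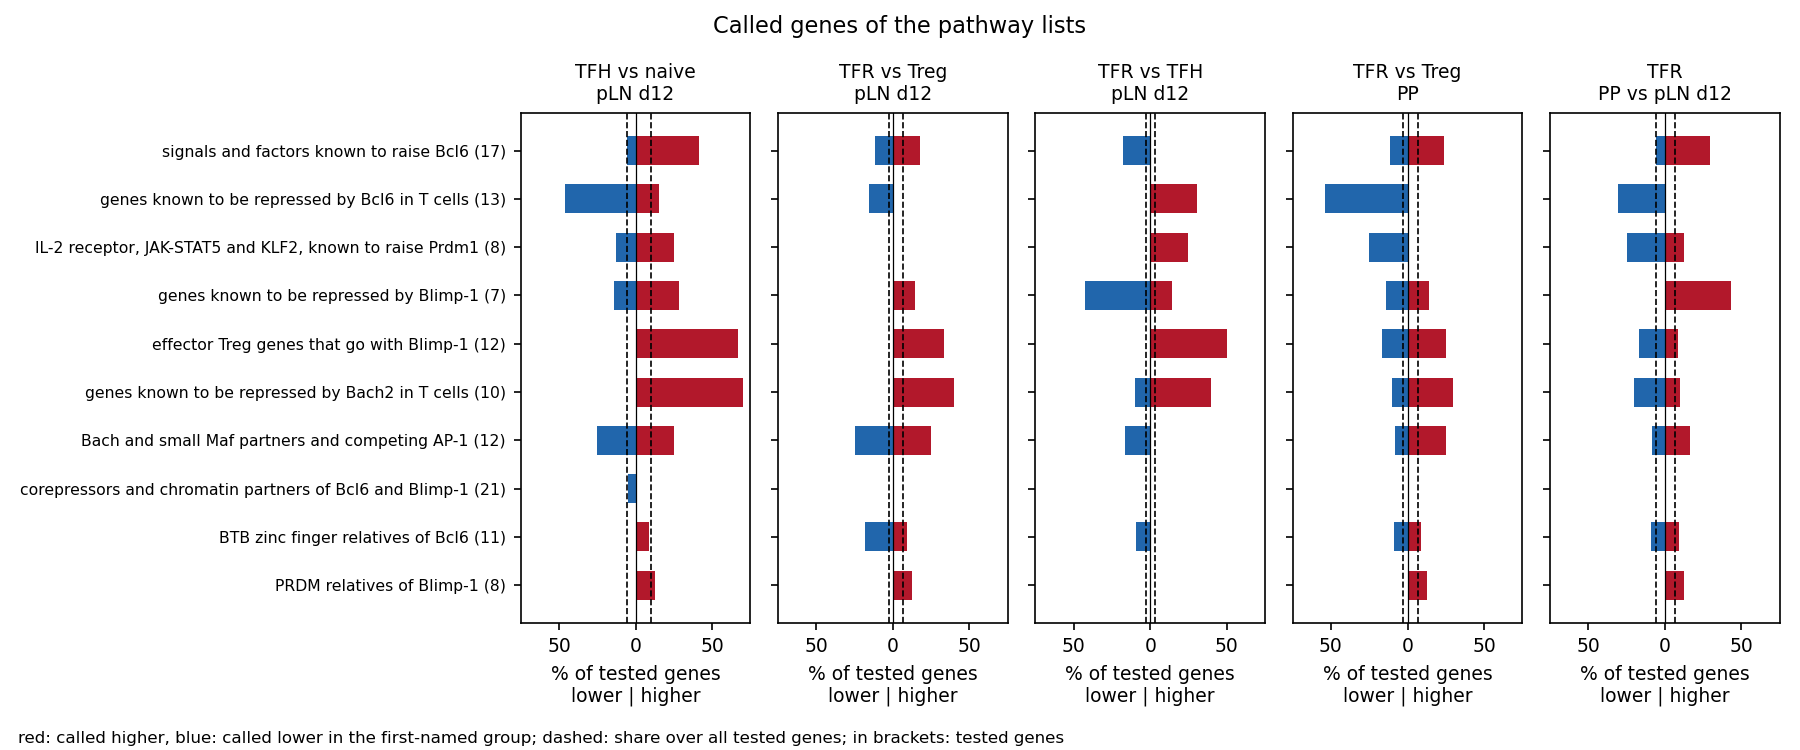
Share of tested genes of each list called higher (red) or lower (blue) in the first-named group, in 5 comparisons, with dashed lines for the share over all tested genes. The Bcl6-repressed list is lower in TFR against Treg cells for 7 of 13 genes in PP and 2 of 13 in pLN d12, and the corepressors hold 1 call in all panels.

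Of 14545 tested genes, those with the pattern over the 12 group means most like that of Bcl6 were Gm8075 (Pearson r = 0.99), Smco4 (0.99), Arc (0.99), Sostdc1 (0.99) and Vdr (0.99), and the most opposite were Itga6 (-0.99), Gm4862 (-0.99) and Slc17a9 (-0.99). For Prdm1 the most alike were Mapkapk3 (0.96), Nfkbia (0.94), 1110059E24Rik (0.94), Tnfrsf1b (0.94) and Snx9 (0.94), and the most opposite Higd2a (-0.97), Ubac2 (-0.95) and LOC386400 (-0.95). For Bach2 the most alike were Cyp2d22 (0.99), Dnajb4 (0.98), Sh3bp5 (0.98), Cd55b (0.98) and Zfp281 (0.98), and the most opposite Gng2 (-0.98), Luzp1 (-0.98) and Gm10687 (-0.98). These values are descriptions over 12 groups that share slides, and the Bcl6 levels fall into separate high and low sets.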

How the data were processed

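Per the labels, total RNA was amplified once from 50 ng (slides 1 and 4) or 40 ng (slides 2, 3 and 5) and dye-labelled. The deposited scanner files (Agilent Feature Extraction 10.7.3.1, per the submitters' processing notes) hold background-subtracted intensity per feature, on a linear scale. The series matrix holds intensity that the authors averaged over features, quantile normalised, scaled and floored.

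Values were rebuilt from the scanner files: the geometric mean of 4 features per probe, without outlier features (outside 1.42 times the interquartile range, or pixel variation over 0.5), went through quantile normalisation, linear scaling (75th percentile set to 1500), a floor of 20 and log2. Per array, the median gap to the authors' values was 0.0347 to 0.0362 (log2), and the largest for Bcl6 was 0.176. A probe was above background with 3 of 4 features well above it, and was tested where this held on both arrays of a group (22264 probes). Tests used limma 3.58.1 (R 4.3.3), a mean per group, 8 residual degrees of freedom and two-sided Benjamini-Hochberg p-values per comparison, in 17 comparisons. A single d25 array is taken to vary as the replicated groups do. Alternatives, whose effect stands in the closing section, were all features kept, the authors' matrix, 75th percentile scaling alone, normexp background, no filter on dim probes, the compared groups alone, slide as a random or fixed block, RNA input as a covariate, and leaving out slide 4 or single arrays. The test was run on simulated data with independent noise on each array and no slide effect, so it could not check how slides affect the calls. A gene stands for its brightest tested probe. From each list, up to 3 called genes in each direction with the largest change were named. Members and lists were chosen with earlier results of these data known. Bounds ("at least") set the dim group at its lowest detected intensity. RefSeq accessions named 27508 of 39429 probes. The number of arrays limits the precision. Replicate numbers follow the order of deposition.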

Additional observations from a re-analysis of the deposited data

Results flagged for a closer look

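Within pLN d12, the follicular step in Bcl6 differed between lineages: TFH minus naive cells exceeded TFR minus Treg cells by log2 2.05 ± 0.45 SE (limma, adjusted p = 0.0494), higher on both slides. The call was lost in 11 of 17 alternatives, with adjusted p from 0.00204 to 0.191. The median local background was 268 on pLN d12 TFR replicate 2 against 24 to 78 elsewhere, and without that array the value was 2.16.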

How the results depend on the processing

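Of 657 values of 51 member results under the alternatives, 578 kept their direction and side of the threshold, 46 lost a call, 11 gained one and 22 changed sign. The calls of Bcl6 and Bach2 between TFH and naive cells, of both between PP GL7+ TFH and Treg cells, and of Bcl6 between PP and pLN TFR cells held in every alternative. Fitting the compared groups alone, with fewer samples, ended the calls of Bcl6 (1.28) and Bach2 (-1.87) in TFR against Treg cells of pLN, of Bcl6 (-2.53) and Prdm1 (1.88) in TFR against TFH cells of pLN, of Bcl6 (3.19) and Bach2 (-2.001) in TFR against Treg cells of PP, of Prdm1 in PP TFR against TFH cells (2.62) and between tissues in TFH (-2.17) and TFR cells (-1.44), and of the Bcl6 follicular step (2.05). Without the filter on dim probes, with more probes tested, 1.28, 1.88, -1.44 and 2.05 of these lost their call. The follicular step also lost it with all features kept (2.01) and with normexp (1.997). Slide as a random or a fixed block gave calls for Prdm1 in Treg against naive cells (1.05), Bach2 in TFR against TFH cells of pLN (1.15) and the tissue difference of the Treg to TFR step in Bcl6 (1.91, also with RNA input as covariate) and Prdm1 (-1.75). The random block also gave one for Bach2 in the follicular step (-1.62) and ended those of Prdm1 between tissues (-2.17 and -1.44). Without slide 4, Prdm1 lost its calls in PP TFH against Treg cells (-3.16), PP TFR against TFH cells (2.87) and between tissues in TFH (-2.07) and TFR cells (-1.07), and uncalled values changed sign for Bach2 between GL7 fractions (-0.15) and in TFR cells between tissues (-0.41) and for Bcl6 in TFH cells between tissues (-0.0914). Bcl6 in TFH cells of d25 against d12 changed sign with all features (0.0391), the authors' matrix (0.0122), 75th percentile scaling (0.0682) and normexp (0.0849), as did Bach2 in naive cells with the authors' matrix (-0.00023). Over all alternatives, counts of called probes moved by over 1.5 times in each comparison. In TFH against naive cells of pLN the count was 3283, with 1463 for the compared groups alone and 4280 when slide was a random block. In TFR cells between tissues it was 2476, with 648 for the compared groups alone and 3533 with RNA input as covariate. The cause was not tested.

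Leaving out single arrays, the follicular step of Bcl6 ranged from 1.69 to 2.41. TFR against Treg cells of pLN ranged from 1.10 to 1.47 (Bcl6) and -2.05 to -1.68 (Bach2), and Prdm1 in TFR against TFH cells from 1.44 to 2.31 in pLN and 2.25 to 2.98 in PP. Prdm1 between tissues ranged from -2.61 to -1.74 in TFH and -1.80 to -1.07 in TFR cells, and Bach2 in PP TFR against TFH cells from 0.31 to 1.598. Uncalled values that changed sign were Prdm1 in TFH against naive cells (-0.32 to 0.54), between GL7 fractions (-0.43 to 0.0169), in Treg cells between tissues (-0.19 to 0.82) and in naive cells between days (-0.43 to 0.21), Bach2 between GL7 fractions (-0.17 to 0.48), in TFR cells between tissues (-0.41 to 0.87), in the tissue difference of the step (-0.77 to 0.51) and in naive cells between days (-0.0532 to 0.11), and Bcl6 in TFH cells between tissues (-0.21 to 0.51) and days (-0.36 to 0.36) and in Treg cells between days (-0.16 to 0.21). Of 195 calls of list genes, 43 held in every alternative and 0 changed sign. The labels number no replicates, and the groups were paired by slide, each of which held the 4 groups of 1 tissue and day, in the fits with slide as a block and in the values within slides. Dim probes, such as the second of Bach2, limit what can be read at low signal.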
